A study of Saccharomyces cerevisiae with 28 samples.

Results

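Ty retrotransposons are mobile elements of budding yeast that copy themselves through an RNA intermediate, and 60 of the 6692 rows in the deposited tables are their Gag and Gag-Pol reading frames. The 60 rows were chosen by identifier and belong to 30 elements on 11 chromosomes. All 60 matched the RefSeq table of build R64. In 29 elements the Gag-Pol row starts with the Gag row and covers it, so that reads in Gag are counted in both. The exception is the element on chromosome I, whose Gag row YAR010C and Pol row YAR009C (the Pol part alone, 3591 nt) do not overlap. Of the 30 elements, 25 have Gag rows of 1323 nt and are Ty1 elements, and 5 have Gag rows of 1317 nt and Gag-Pol rows of 5314 nt and are Ty2 elements. The family names are background knowledge matched to these lengths.

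A Ty element is transcribed from its long terminal repeat into a nearly full-length mRNA. Ribosomes that translate this mRNA make Gag, the protein of the virus-like particle, and a minority shift frame by +1 near the end of Gag and make the Gag-Pol fusion, which supplies protease, integrase, reverse transcriptase and RNase H. The ratio of Gag-Pol to Gag is known to matter for transposition, and Ty1 transcription is known to respond to mating type and to the filamentation regulators Ste12 and Tec1.

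Footprints (ribosome-protected mRNA fragments) and fragmented total RNA depleted of ribosomal RNA were sequenced from the strains 4Gts (YWG1246, YAJ41) and WT (YWG1245, YAJ3) in a study of yeast depleted of eIF4G, the scaffold of the cap-binding complex. The labels do not spell out the genotypes, and they give no Ty copy number for either strain. In SC medium the cultures had 2% raffinose, then 2% galactose for 30 min, and were held at 36 °C for 2 h or 8 h. This gave 4 groups of 2 cultures (4Gts 2 h, 4Gts 8 h, WT 2 h, WT 8 h) and 16 libraries. For YPA medium there was 1 sample per strain and stage: in raffinose at 25 °C (pre-shift), after 30 min of galactose at 25 °C (0 h) and after 2 h at 36 °C. The labels do not say whether the stages of a strain came from 1 culture. Every culture of both strains was treated with cycloheximide before harvest, poured over ice and lysed with glass beads.

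The deposited unit is RPKM, reads per kilobase of row scaled to the depth of the library. The steps between low values gave 3.92 to 18.1 M reads for SC mRNA, 4.59 to 11.1 M for SC footprints, 1.71 to 3.27 M for YPA mRNA and 1.35 to 5.62 M for YPA footprints. In SC, 78.8% to 85.4% of low values were whole reads and 97.3% to 99.2% fell on twelfths of a read. In YPA, 96.3% to 98.6% were whole reads. In the SC tables reads that match several places therefore appear divided between them, and the value of a single copy may not be a measurement of that copy alone: the copies are read as families. This counting rule is inferred from the values; no label states it. The eIF4G2 gene TIF4632 had 0.505, 0.282, 0.271 and 0.211 RPKM of mRNA in 4Gts and 21.5, 25.8, 20.1 and 29.3 RPKM in WT, and the strains did not overlap. The eIF4G1 gene TIF4631 had 201.2, 226.5, 209.7 and 405.4 RPKM of mRNA in 4Gts and 80.3, 54.4, 76.9 and 57.9 RPKM in WT, higher in each 4Gts library. Protein was not measured, so these tables do not show depletion of eIF4G1. Nothing in the labels tells whether replicates were grown apart, nor whether a strain's 2 h and 8 h samples with the same number share a culture, so p-values reflect the scatter of these samples alone, possibly technical.

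Ty elements were among the most abundant transcripts, and their share was lower in 4Gts. With no read counted in both Gag and Gag-Pol, the 30 elements held 8.81% and 6.46% of the mRNA library at 2 h and 11% and 8.31% at 8 h in 4Gts. In WT they held 17.9% and 16.3% at 2 h and 16.3% and 14.9% at 8 h. Each 4Gts culture lay below each WT culture. In footprints the share was 1.55% and 1.38% at 2 h and 1.73% and 2.23% at 8 h in 4Gts, against 3.25% and 2.73% at 2 h and 3.48% and 2.77% at 8 h in WT. The footprint shares of the strains did not overlap either. Ty elements took a smaller share of footprints than of mRNA in all 8 cultures. Fewer cells with active elements, fewer genomic copies and less RNA per copy cannot be told apart in these samples.

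**Figure D1:**
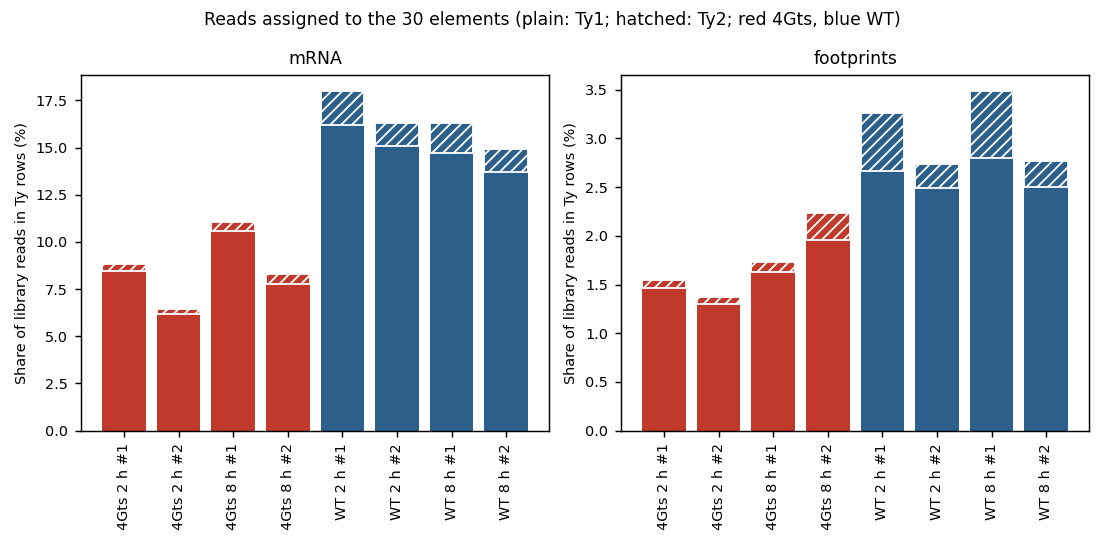
Share of each SC library's reads (%, vertical axis) in the rows of the 30 Ty elements by culture, with mRNA on the left and footprints on the right; plain bars are Ty1, hatched bars Ty2, red 4Gts and blue WT, with #1 and #2 the replicates. The mRNA share is 6.46% to 11% in 4Gts cultures and 14.9% to 17.9% in WT cultures.

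Gag mRNA of Ty1 in 4Gts stood at 0.574 times its level in WT (ratio of geometric means over 4 cultures a strain). Its mean over the 25 copies was 700.8 ± 33.6 RPKM at 2 h and 829.8 ± 137 RPKM at 8 h in 4Gts, and 1416 ± 3.86 RPKM at 2 h and 1237 ± 62.1 RPKM at 8 h in WT (SD, n = 2 each). The copy with the highest mean, YOL103W-A on chromosome XV (118000 to 119322, forward strand, R64), had 856.8 and 781.5 RPKM at 2 h and 1105 and 864.5 RPKM at 8 h in 4Gts, against 1690 and 1661 RPKM at 2 h and 1542 and 1395 RPKM at 8 h in WT. All 4 WT values of this Gag row lay above all 4 values in 4Gts. On the log2(RPKM + 1) scale, after scaling each library by its median ratio, YOL103W-A mRNA fell by 0.83 averaged over both times (SE 0.17, limma, Benjamini-Hochberg adjusted p = 0.0462).

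Gag mRNA of Ty2 showed a larger gap. The 5 copies averaged 88.4 ± 0.422 RPKM at 2 h and 129.3 ± 25.8 RPKM at 8 h in 4Gts, and 424.4 ± 107 RPKM at 2 h and 379.8 ± 67.5 RPKM at 8 h in WT (SD, n = 2 each), a ratio of geometric means of 0.268. YCL020W on chromosome III (85102 to 86418, forward strand, R64), the Ty2 Gag row with the highest mean, had 105.3 and 108.4 RPKM at 2 h and 135 and 176.9 RPKM at 8 h in 4Gts, against 604.4 and 420.1 RPKM at 2 h and 514.5 and 391 RPKM at 8 h in WT. The groups did not overlap, and the WT cultures numbered 1 were above those numbered 2 at both times. YCL020W mRNA fell by 1.90 (SE 0.24, limma adjusted p = 0.0175), and YBL100W-A, the member with the largest fall in mRNA, by 1.92 (SE 0.24, adjusted p = 0.0175). The Ty2 mean was 12.2%, 13.1%, 12% and 20.1% of the Ty1 mean of Gag mRNA in the 4 4Gts cultures, and 35.2%, 24.7%, 33.4% and 27.8% in the 4 WT cultures. These shares did not overlap between the strains; no test of the family difference was made, since the families were known to differ before it was computed.

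**Figure D2:**
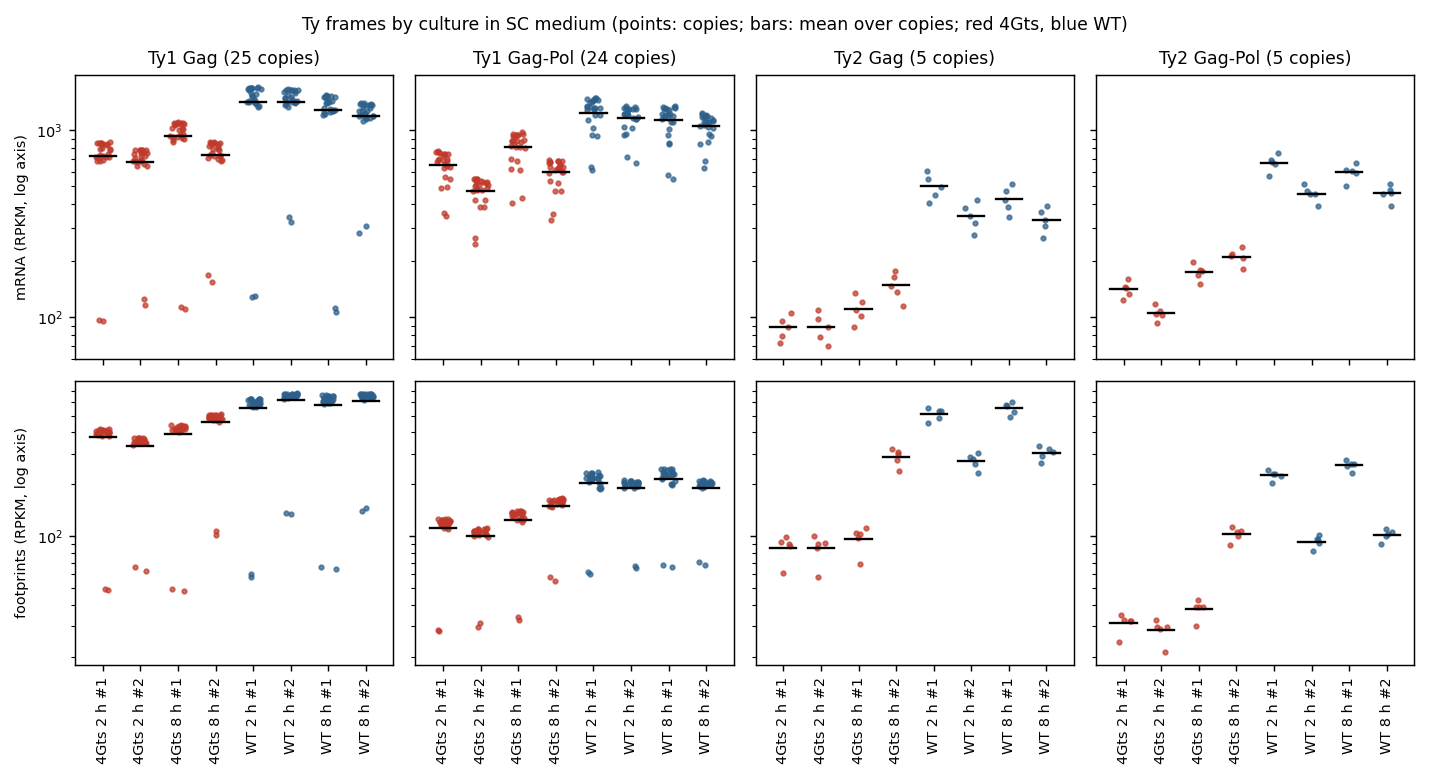
RPKM (log axis) of each Ty copy in each SC culture, with mRNA above and footprints below and a column for each family and frame; points are copies, bars the mean over copies, red 4Gts and blue WT. Ty2 Gag mRNA means 88.4 RPKM at 2 h in 4Gts and 424.4 RPKM in WT, and 2 Ty1 Gag copies lie far below the other 23.

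Across all members the averaged mRNA difference was below 0 for 60 of 60 rows, with a median of -0.89 against 0.01 over the 4689 genes tested. limma called 42 of 60 lower and 0 higher at an adjusted p below 0.05, where 3.35% of all genes were called lower and 2.58% higher. The calls were 23 of 25 Ty1 Gag rows, 9 of 24 Ty1 Gag-Pol rows, 5 of 5 Ty2 Gag rows and 5 of 5 Ty2 Gag-Pol rows. The remaining 15 Ty1 Gag-Pol rows had adjusted p of at most 0.0541, and their values resembled those called: the 24 rows lay between -0.93 and -0.87. Because the rows share reads, these counts are not counts of separate events. Over both times 58 of 60 members did not overlap between strains, where 13.3% of all genes had 4Gts wholly below WT. All 42 calls were lost once same-numbered 2 h and 8 h samples of a strain were merged into a mean (lowest adjusted p = 0.245) or tied by a random block (lowest adjusted p = 0.145). Fits without 1 culture called Ty2 rows only, and only when 4Gts 8 h replicate 2 or WT 2 h replicate 2 was left out. No Ty1 call held in any of these fits, and no member was called when any of the other 6 cultures was left out.

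At single times no member passed in mRNA. At 2 h the median difference was -1.15 and the lowest limma adjusted p 0.053, with 58 of 60 rows below an unadjusted p of 0.05. The 2 cultures a strain did not overlap for 60 of 60 members at 2 h, where 25.7% of all genes had 4Gts wholly below WT, 0.0213% were called lower and 0.0427% higher. At 8 h the median was -0.62, the lowest adjusted p 0.31, and 58 of 60 members did not overlap, where 19.6% of all genes did not overlap in that direction and 0.0213% were called lower. Of these 8 h values, 27 had an unadjusted p below 0.05. With replicate number as a block 60 members were called at 2 h and 10 at 8 h.

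The Gag-Pol rows had mRNA differences close in size to those of their Gag rows. YOL103W-B, the Ty1 Gag-Pol row of 5269 nt that begins with YOL103W-A, had 770.8 and 549.5 RPKM of mRNA at 2 h and 970.7 and 692.6 RPKM at 8 h in 4Gts, against 1489 and 1348 RPKM at 2 h and 1353 and 1230 RPKM at 8 h in WT. The strains did not overlap, and its averaged difference was -0.91 (SE 0.21, limma adjusted p = 0.0535), which missed the threshold. YCL019W, the Ty2 Gag-Pol row with the highest mean, had 158.8 and 117.8 RPKM at 2 h and 197.1 and 235.6 RPKM at 8 h in 4Gts, against 753.1 and 513.5 RPKM at 2 h and 668.4 and 514 RPKM at 8 h in WT. Its 4 4Gts values were all below its 4 WT values, and it fell by 1.83 (SE 0.25, adjusted p = 0.0194). Mean mRNA per kilobase was higher in the Gag-Pol row than in its Gag row for 5 of 5 Ty2 elements and for 2 of 24 Ty1 elements, those of YBL005W-A and YMR046C. How reads shared between copies enter these levels was not tested.

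Footprints on Gag, the measure of ribosomes on the frame, had lower means in 4Gts in both families, and 23 of 25 Ty1 Gag rows passed the test, where 6.55% of all genes were called lower. None of these calls held with the random block, with the merged samples, on unscaled values (adjusted p from 0.0517 to 0.433 over the 25 rows) or with quantile normalization (0.0633 to 0.348). Ty1 Gag footprints averaged 354 ± 28.2 RPKM at 2 h and 426 ± 45.7 RPKM at 8 h in 4Gts, and 584 ± 40.5 RPKM at 2 h and 594.8 ± 22.5 RPKM at 8 h in WT (SD, n = 2 each). YOL103W-A had 406.2 and 359.9 RPKM of footprints at 2 h and 427.6 and 491.7 RPKM at 8 h in 4Gts, against 614.8 and 664.6 RPKM at 2 h and 645 and 653.1 RPKM at 8 h in WT. The 4Gts cultures were the lower 4 of the 8, and YOL103W-A footprints fell by 0.69 (SE 0.15, limma adjusted p = 0.0459).

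Ty2 Gag footprints varied more between cultures. YCL020W had 98.6 and 100.1 RPKM at 2 h and 111.5 and 322.1 RPKM at 8 h in 4Gts, against 551.6 and 302.1 RPKM at 2 h and 601.2 and 331.4 RPKM at 8 h in WT. The 4Gts 8 h replicate 2 stood near the WT cultures numbered 2, and above 1 of them, so the strains overlapped for this row. The averaged difference was -1.70 (SE 0.44, limma adjusted p = 0.066). None of the 10 Ty2 rows passed in footprints, with differences between -2.02 and -1.70 and adjusted p from 0.056 to 0.0818. With replicate number as a block all 10 passed (adjusted p from 0.0173 to 0.0242); the labels do not say what a number shares.

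On Gag-Pol rows the footprint calls were all of Ty1. All 24 Ty1 Gag-Pol rows covering Gag passed, with differences from -0.93 to -0.74, against 6.55% of all genes. Over the 29 nested elements of both families, reads in Gag made up 75.0% to 82.6% of the Gag-Pol footprint reads in 4Gts cultures and 64.2% to 79.1% in WT cultures, so these calls largely count the Gag reads again, and the Gag-Pol calls too were lost with the random block and the merged samples. The member with the largest fall among those called was YMR045C on chromosome XIII (357359 to 362627, reverse strand, R64), with 28.3 and 29.7 RPKM at 2 h and 32.8 and 55.1 RPKM at 8 h in 4Gts, against 60.2 and 65.2 RPKM at 2 h and 66 and 67.9 RPKM at 8 h in WT. Its strains did not overlap, and the fall was 0.93 (SE 0.20, limma adjusted p = 0.0459). YBL005W-B, next in size, fell by 0.93 (SE 0.20, adjusted p = 0.0459), and YOL103W-B by 0.82 (SE 0.18, adjusted p = 0.0459).

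In all, limma called 47 of 60 members lower in footprints averaged over both times and 0 higher, with 6.55% of all genes called lower and 3.13% higher. Over both times 48 of 60 did not overlap between strains, where 14.3% of all genes did not overlap in that direction. The members' median was -0.77, against 0.01 over all genes tested, and all 60 rows were below 0. All 47 calls were lost with the merged samples (lowest adjusted p = 0.377) or with the random block (lowest adjusted p = 0.422). With 1 culture left out, only YBL005W-B and YMR045C of these kept a call, and only without 4Gts 8 h replicate 2. The Ty2 Gag rows, not called in the main fit, passed there too. Without any of the other 7 cultures no member was called. At 2 h the median was -0.98 (0 called, lowest adjusted p 0.0991, 58 below an unadjusted p of 0.05), and 60 of 60 did not overlap, where 0.981% of all genes were called lower, 0.277% higher, and 26.3% did not overlap. At 8 h it was -0.57 (0 called, lowest adjusted p 0.414, 15 below an unadjusted p of 0.05), and 50 of 60 did not overlap, where 0.0213% of all genes were called lower and 17.9% did not overlap.

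**Figure D3:**
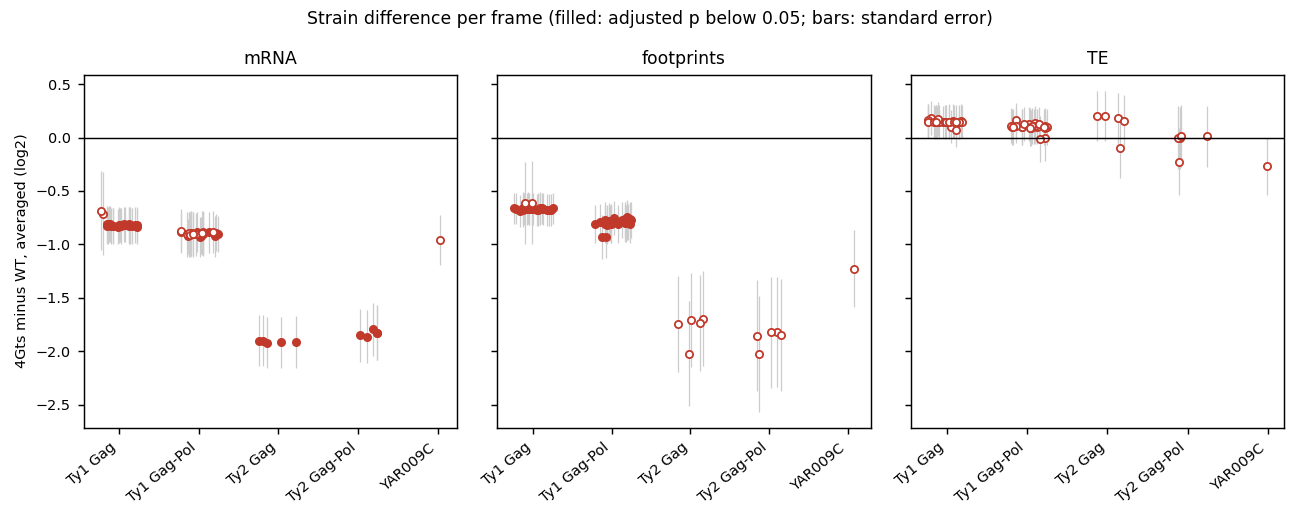
Averaged 4Gts minus WT difference (log2, vertical axis) of each Ty row for mRNA, footprints and TE, by family and frame; filled points have a limma adjusted p below 0.05, open points do not, and bars are standard errors. Differences lie near -0.8 for Ty1 Gag mRNA and near -1.9 for Ty2 Gag mRNA, and TE values lie about 0.

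Translational efficiency (TE, footprints over mRNA in 1 culture) gave no call among the members. Ty1 Gag TE averaged 0.518 ± 0.0837 in 4Gts and 0.452 ± 0.0485 in WT (deposited ratios, SD, n = 4 each). Ty1 Gag-Pol TE averaged 0.196 ± 0.0435 in 4Gts and 0.174 ± 0.0129 in WT. Ty2 Gag TE averaged 1.202 ± 0.521 in 4Gts and 1.015 ± 0.22 in WT. Ty2 Gag-Pol TE averaged 0.3 ± 0.129 in 4Gts and 0.2995 ± 0.108 in WT. For YOL103W-A the ratio was 0.474 and 0.461 at 2 h and 0.387 and 0.569 at 8 h in 4Gts, against 0.364 and 0.4 at 2 h and 0.418 and 0.468 at 8 h in WT, and the strains overlapped. The scaled averaged difference of this Gag row was 0.14 (SE 0.16, limma adjusted p = 0.59).

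Over the 60 members the median TE difference was 0.13, against -0.01 for all genes, with 54 rows above 0, 0 called (lowest limma adjusted p 0.503) and 0 below an unadjusted p of 0.05, where 2.6% of all genes were called higher and 5.08% lower. At 2 h 51 of 60 members were above 0, with a median of 0.19. Of the 60, 47 did not overlap between strains, where 25.8% of all genes did not overlap in that direction. These were all Ty1 rows, which share reads, and the Ty2 rows all overlapped. Ty2 differences at 2 h lay between -0.231 and 0.149 on Gag rows and between -0.371 and -0.055 on Gag-Pol rows. At 2 h 0 members were called (lowest limma adjusted p 0.514), with 0% of all genes called higher and 0.171% lower. At 8 h the median was 0.05, with 0 called (lowest adjusted p 0.793) and 0% of all genes called higher. Without 4Gts 8 h replicate 2 the 8 h median was -0.30.

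Density of footprints past the frameshift, as a share of that on Gag, was next read from the 29 elements whose rows nest. The Pol-only density is the Gag-Pol reads minus the Gag reads over the length that Gag does not cover. Reads were approximated here as RPKM times the full row length. For Ty1 the Pol-only footprint density was 6.45% and 6.24% of the Gag density at 2 h and 8.67% and 10.1% at 8 h in 4Gts. In WT it was 15.3% and 7.92% at 2 h and 15.8% and 8.24% at 8 h. With row lengths shortened by 24 nt, the Ty1 values in 4Gts were 6.88% and 6.67% at 2 h and 9.09% and 10.5% at 8 h. In WT the shortened lengths gave 15.7% and 8.34% at 2 h and 16.2% and 8.66% at 8 h. The WT cultures numbered 1 were highest at both times, and the WT cultures numbered 2 lay within the range of 4Gts. In mRNA the same ratio was 0.86 and 0.602 at 2 h and 0.838 and 0.751 at 8 h in 4Gts, against 0.835 and 0.758 at 2 h and 0.843 and 0.846 at 8 h in WT. Pol of Ty1 thus had 0.602 to 0.86 of the mRNA density of Gag, and far fewer footprints, in all 8 cultures. For Ty2 the mRNA ratio was 1.24 to 1.8, so the Pol part was listed with a higher mRNA density than Gag. The Ty2 footprint ratio was 11.6% to 28.9%. How reads divided between copies or between families enter these ratios was not tested.

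Set over the mRNA ratio, the Ty1 footprint ratio was 7.5% and 10.4% at 2 h and 10.4% and 13.5% at 8 h in 4Gts, and 18.4% and 10.4% at 2 h and 18.8% and 9.74% at 8 h in WT. Ty2 gave 8.62% and 9.37% at 2 h and 10.8% and 9.23% at 8 h in 4Gts, and 17.8% and 8.69% at 2 h and 18.9% and 7.73% at 8 h in WT. The strains overlapped in both families, and the high values were again the WT cultures numbered 1. YAR009C, whose row holds Pol alone, gives a footprint ratio without subtraction, here not set over mRNA. Its footprint RPKM over that of YAR010C was 0.0618 and 0.0581 at 2 h and 0.0852 and 0.0935 at 8 h in 4Gts. In WT this ratio was 0.159 and 0.0747 at 2 h and 0.161 and 0.0773 at 8 h. In WT these direct ratios show the same order of cultures as the subtracted Ty1 footprint ratios before division by the mRNA ratio. A footprint within Pol is not a count of frameshifts.

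**Figure D4:**
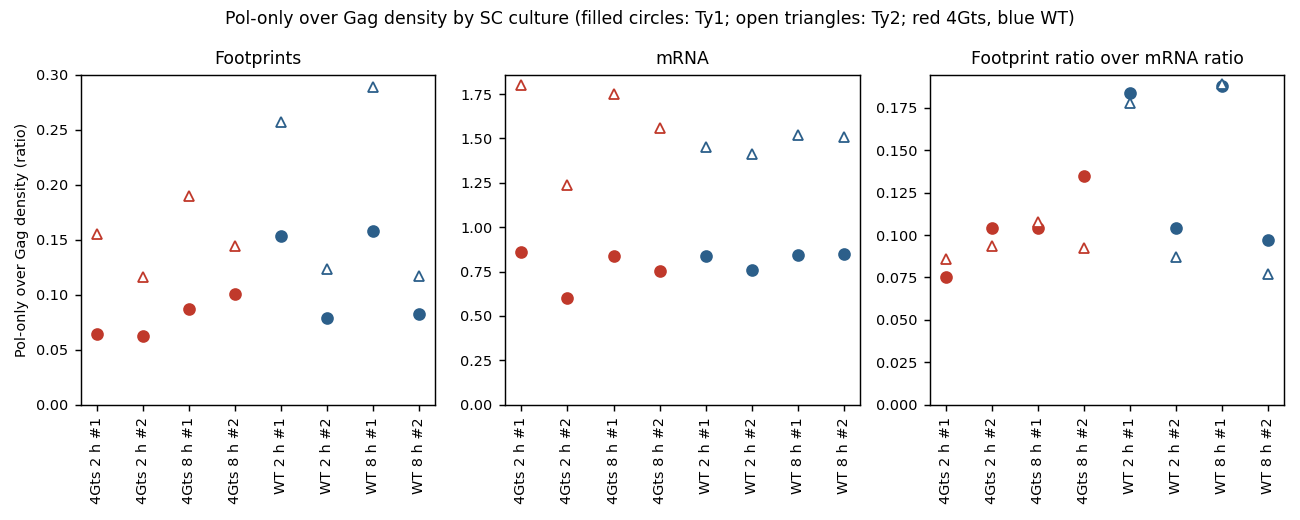
Pol-only over Gag density (ratio, vertical axis) by SC culture for footprints, for mRNA and for the footprint ratio over the mRNA ratio; filled circles are Ty1 (24 elements), open triangles Ty2 (5 elements), red 4Gts and blue WT. The 2 WT cultures numbered 1 lie above the rest in the footprint panel, at 0.153 and 0.158 for Ty1.

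Copies differed within a family as well. The Ty1 Gag rows YBL005W-A and YMR046C, singled out after their values were seen, lay far below the other 23 in each culture. YMR046C mRNA was 96.7 and 115.9 RPKM at 2 h and 110.3 and 154.9 RPKM at 8 h in 4Gts, against 127.4 and 320.7 RPKM at 2 h and 106.1 and 280 RPKM at 8 h in WT. The strains overlapped for this row, as they did for YBL005W-A, and these were the 2 Ty1 Gag rows that did not pass in mRNA (adjusted p = 0.265 for YMR046C and 0.276 for YBL005W-A by limma). Here the WT cultures numbered 2 were the high ones. In the Ty2 rows the WT cultures numbered 1 were the high ones.

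Mating-pheromone genes, which are no Ty members, also differed between replicate numbers. MFA1, the a-factor gene of a cells, had 2683 and 686.8 RPKM of mRNA at 2 h and 3024 and 296.2 RPKM at 8 h in 4Gts, against 1996 and 356.2 RPKM at 2 h and 2012 and 371 RPKM at 8 h in WT. Cultures numbered 1 were the higher in every group. MF(ALPHA)1, the alpha-factor gene, had 12.6 and 7.54 RPKM at 2 h and 17.8 and 20.3 RPKM at 8 h in 4Gts, against 27.8 and 84.6 RPKM at 2 h and 31.3 and 101.7 RPKM at 8 h in WT. Its WT cultures numbered 2 were the higher ones at both times, and its 4Gts cultures had no such order. All MF(ALPHA)1 values in 4Gts lay below all those in WT. On the scaled values 13.3% of all genes had 4Gts wholly below WT in mRNA. Of the fixed lists, 6 of 6 a-specific genes and 1 of 4 alpha-specific genes passed the filter on low values. In mRNA and footprints 0 of either were called. The averaged a-specific differences had a median of 0.497 in mRNA and 0.82 in footprints, with 0 genes below 0 in either. The alpha-specific gene tested had averaged differences of -1.887 in mRNA and -1.965 in footprints. STE6, the a-factor exporter, rose by 0.54 in TE (limma adjusted p = 0.0374). The part of these differences in the Ty values was not tested.

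Time at 36 °C gave no call among the members. From 2 h to 8 h the median mRNA difference was 0.36 in 4Gts and -0.18 in WT, and that of footprints 0.46 in 4Gts and 0.05 in WT. The change of the strain difference from 2 h to 8 h had a median of 0.53 in mRNA and 0.40 in footprints over the 60 rows. For the change of the strain difference limma gave adjusted p of 1 for each member in both layers, 0 members below an unadjusted p of 0.05 and 0% of all genes called. In 4Gts 38 of 60 members were higher in both 8 h cultures in mRNA, where 11.6% of all genes were, and 58 of 60 in footprints, where 10.4% were; 0 were called (lowest adjusted p 0.999 in mRNA and 1 in footprints), with 0% of all genes called in either layer. In WT 5 of 60 were lower in both 8 h cultures in mRNA, where 5.72% of all genes were, and 0% of all genes were called. TE differences from 2 h to 8 h had a median of 0.10 in 4Gts and 0.27 in WT, with 0 called and 0% of all genes called. In WT 49 of 60 members were higher in TE in both 8 h cultures, where 10.7% of all genes were, and 11 of 60 in footprints, where 3.99% were.

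The YPA tables listed few reads for the same rows. Of the 60 members, 27 were at 0 in all 12 YPA libraries, where 1.51% of the genes averaging 10 RPKM or more across SC mRNA were at 0. They were 18 of 25 Ty1 Gag rows and 9 of 24 Ty1 Gag-Pol rows, and 0 of the 10 Ty2 rows. The highest member in YPA, YOL103W-A, had 15.3, 22.8 and 10.3 RPKM of mRNA in 4Gts before the shift, at 0 h and at 2 h, and 24.5, 34.3 and 25 RPKM in WT. Levels in SC and YPA were not set against each other, since the share of low values that were whole reads differed between their tables and the counting rule is not given. A 0 in YPA is a listing at 0 and not a sign that the element was silent.

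Summed over elements, Ty reads in YPA were also lower in 4Gts. These sums rest on few rows: 6 Ty1 elements held 86.9% to 95.4% of the Ty1 mRNA reads in 4Gts libraries and 93.7% to 97.1% in WT libraries, and they were the same 6 in each library. They include those of YBL005W-B and YMR045C, whose Gag rows stood apart in SC. Together these held 29.8% to 34.3% in 4Gts and 21.3% to 24.1% in WT. Each of the 6 Gag-Pol rows had less mRNA in 4Gts than in WT at each stage, except YMR045C at 2 h (5.49 against 5.02 RPKM). Among rows with fewer reads some were higher in 4Gts, such as YDR210C-D at 2 h. Ty1 rows held 140, 147 and 150 mRNA reads per M reads of depth in 4Gts at pre-shift, 0 h and 2 h, against 263, 320 and 278 in WT. The ratio of 4Gts to WT was 0.531 before the shift (exact 95% interval 0.458 to 0.613), 0.46 at 0 h (0.402 to 0.524) and 0.541 at 2 h (0.475 to 0.615). Ty2 rows held 25.2, 18.6 and 35.2 mRNA reads per M in 4Gts and 47.4, 72.7 and 120 in WT. Their ratio was 0.532 (0.37 to 0.75) before the shift, 0.256 (0.177 to 0.362) at 0 h and 0.295 (0.228 to 0.377) at 2 h. In each of these 6 comparisons the WT library was the higher one. The Ty2 sums rest on few rows too: of 313 Ty2 mRNA reads in WT at 2 h, YDR261W-B held 160 and YDR034C-D 87.

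YPA footprints on Ty rows were few. Ty1 rows had 25, 30 and 25 reads in 4Gts and 102, 106 and 94 in WT, a ratio of 0.481 (0.297 to 0.751) before the shift, 0.426 (0.274 to 0.645) at 0 h and 0.723 (0.446 to 1.13) at 2 h. Ty2 rows had 4, 5 and 6 reads in 4Gts and 23, 40 and 57 in WT. The Ty1 interval at 2 h includes equality. There was 1 culture per strain and stage, so no test was made; the intervals cover counting error only, and reads without molecular identifiers are not independent molecules. The strain difference in YPA was measured already at 25 °C before galactose.

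**Figure D5:**
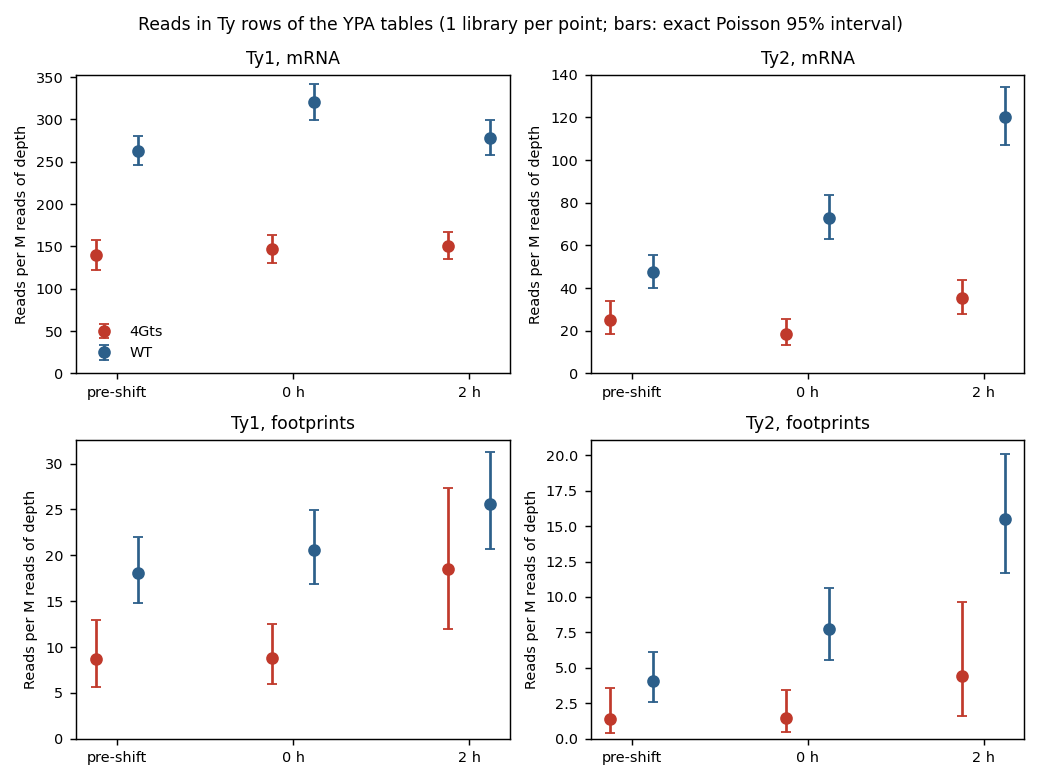
Reads per M reads of depth in Ty rows of the YPA tables at 3 stages, for Ty1 and Ty2 in mRNA and footprints; each point is 1 library, red 4Gts and blue WT, and bars are exact Poisson 95% intervals of the count. Ty1 mRNA is 140 to 150 reads per M in 4Gts and 263 to 320 in WT.

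Ty frames outside the 60 were also examined in SC. The tables hold 30 such rows, of which 22 passed the filter, and limma called 20 of 22 lower in mRNA (3.35% of all genes), 10 of 22 lower in footprints (6.55% of all genes) and 0 in TE. They can share divided reads with the 60 rows and are no separate support. With the random block 0 were called (lowest adjusted p 0.145 in mRNA and 0.424 in footprints), and with the merged samples 0 (0.245 and 0.388). YLR256W-A, the one with the highest mean, had 845.1 and 775.8 RPKM of mRNA at 2 h and 1080 and 846.3 RPKM at 8 h in 4Gts, against 1674 and 1632 RPKM at 2 h and 1507 and 1374 RPKM at 8 h in WT. Its strains did not overlap, and it fell by 0.83 (SE 0.17, adjusted p = 0.0462). YPR158C-C, YPR158W-A and YHR214C-C, next in level, fell by 0.83, 0.83 and 0.82 with adjusted p of 0.0462, 0.0456 and 0.0456. In YPA these other frames went both ways. Before the shift YNL284C-B had 3.131 RPKM of mRNA in 4Gts and 2.333 RPKM in WT. YPR158C-D had 3.579 RPKM in 4Gts and 6.998 RPKM in WT. These YPA values were not tested.

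Host genes that act on Ty elements were called at 0 to 2 genes a list in mRNA, footprints or TE, apart from 3 RNA polymerase III genes in footprints. These shares stand beside 2.58% of all genes called higher and 3.35% lower in mRNA, 3.13% and 6.55% in footprints and 2.6% and 5.08% in TE, and nothing is read from a list near them. With the random block 0 genes of any list were called in any layer (lowest adjusted p 0.0981), and 0 with the merged samples (lowest 0.174). Of 22 tested genes of Ty transcription, 1 was higher and 0 lower in mRNA: TEA1, a Ty1 enhancer activator, rose by 1.21 (SE 0.22, limma adjusted p = 0.0397), beside a list median of 0.04. In footprints TEA1 rose by 1.31 (adjusted p = 0.0127) and SNF6, of the SWI/SNF chromatin remodeler, by 0.56 (adjusted p = 0.0483). STE12 (0.61, SE 0.52, adjusted p = 0.472) and TEC1 (0.29, SE 0.66, adjusted p = 0.804) did not pass. GCN4, a transcriptional activator that binds Ty1 DNA, fell by 1.86 in TE (SE 0.45, adjusted p = 0.0456) and had an mRNA difference of 0.44 (adjusted p = 0.111). Of 8 genes of the filamentation kinases and their partners 1 passed, DIG1, an inhibitor of Ste12. DIG1 rose by 0.93 in mRNA (SE 0.18, limma adjusted p = 0.0441) and by 0.996 in footprints (adjusted p = 0.0215).

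Of 14 tested genes of Ty1 restriction and genome maintenance, HIR1, a histone gene repressor, fell by 1.03 in mRNA (SE 0.16, limma adjusted p = 0.0271). In footprints HIR1 fell by 0.98 (adjusted p = 0.0459) and HPC2, of the same complex, by 0.63 (adjusted p = 0.0451). Of 16 tested genes of RNA polymerase III and its factors, which guide Ty1 integration, 0 passed in mRNA, and in footprints RET1 rose by 0.88 while TFC1 and TFC8 fell by 0.68 and 0.71; in TE BDP1 rose by 0.75 (adjusted p = 0.0383). SUP35, the release factor eRF3, rose in footprints by 0.97 (adjusted p = 0.045) and in TE by 0.80 (adjusted p = 0.0264), the 1 call among 10 elongation and termination factors in either layer. In mRNA 0 of 12 RNA decay and P-body genes, 0 of 6 signal recognition particle genes and 0 of 6 haploid-specific genes were called. In TE POP2, a deadenylase of the decay list, fell by 0.61 (adjusted p = 0.036).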

How the data were processed

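The authors deposited RPKM per gene and library, and TE as the ratio of footprint to mRNA RPKM per SC culture, which equalled the RPKM ratio on the log2 scale to within 7.06e-12; the values were not pooled. Per the submitters' processing notes, TopHat, DESeq (with no role) and build sacCer3 were used; their versions and counting rules are not given in the sources. RNA fragments of 26 to 40 nt were selected per the labels' protocols. Rows were matched to a RefSeq R64 table by identifier (6008 of 6692 matched). Each library was divided by its median ratio to an average library, and log2(RPKM + 1) was taken, which understates the change of low genes. The 4689 genes averaging 10 RPKM or more in each SC table were tested, all 60 members among them. limma 3.58.1 (R 4.3.3; lmFit, eBayes) used the 8 SC cultures, with a mean per group and 4 residual degrees of freedom, and Benjamini-Hochberg adjustment ran over all genes. TE differences were scaled log2 footprints minus scaled log2 mRNA. The fits were tested on simulated data. Low values gave whole reads once row lengths were shortened by 24 nt, within 0.05 reads; Python 3.11.15 and scipy 1.17.1 gave exact intervals. Members, lists, and the rule for named genes were chosen with earlier results of these data known: named were, per family and frame, the copy with the highest mean SC mRNA, members past the threshold by size, 4 other Ty frames, and list genes past the threshold, otherwise values. SC and YPA were not compared in level. Alternatives are given under the dependence on processing. The YPA TE table was not used.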

Additional observations from a re-analysis of the deposited data

Results flagged for a closer look

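Among 24 means over copies (4 family and frame sets, 3 layers, 2 strains of 4 cultures each), 3 held a culture far from the other 3, and chance flags about 1 in 20. All were 4Gts 8 h replicate 2 and all were Ty2. They are not separate flags, since Gag-Pol rows count the Gag reads again and TE is built from the same footprints. The count of 3 therefore cannot be set against 1 in 20. Each set of 4 also pools 2 h and 8 h cultures. Ty2 Gag footprints were 288.6 RPKM there, while the 4Gts cultures averaged 139.1 ± 99.8 RPKM (SD, n = 4). Ty2 Gag-Pol footprints were 102.8 RPKM there, against a mean of 50.1 ± 35.3 RPKM. The Ty2 Gag TE ratio was 1.98 there, against a mean of 1.20 ± 0.521.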

How the results depend on the processing

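In TE, in the comparisons of 8 h with 2 h, in the change of the strain difference and in footprints without a block at single times, 0 members were called under each alternative run. Averaged mRNA calls were 42 of 60: 42 and 57 with a pseudocount of 0.1 and 10 RPKM, 47 on unscaled values, 58 with quantile normalization, 60 with a replicate block, 10 without the filter on low values, 0 with a random block for strain plus number, 0 with 2 h and 8 h averaged first, and 0 to 10 with 1 culture left out. Averaged footprint calls were 47 of 60: 47 with either pseudocount, 60 with a replicate block (adjusted p of the 10 Ty2 rows 0.0173 to 0.0242), 24 without the filter, 22 on unscaled values, 13 with quantile normalization, 0 with the random block, 0 with 2 h and 8 h averaged first, and 0 to 7 with 1 culture left out. For mRNA at 2 h, with 0 calls as reported, 9 came with a pseudocount of 10 RPKM, 10 on unscaled values and 55 with quantile normalization. With replicate number as a block, a replicate block, the calls were 60 in mRNA at 2 h, 10 in mRNA at 8 h and 59 in footprints at 2 h; the labels give only 2 numbers a group and do not say what they share. Differences between replicates 1 and 2 correlated between groups over genes at 0.557 to 0.961 in mRNA and footprints and 0.14 to 0.603 in TE. The highest were between WT at 2 h and 8 h. Over the members, which share reads, they correlated at -0.053 to 0.96 in mRNA, -0.641 to 0.999 in footprints and -0.867 to 0.992 in TE. The lowest member value in each layer was between 4Gts at 8 h and a WT group. With 1 culture left out, the TE median at 8 h ranged from -0.298 (without 4Gts 8 h replicate 2) to 0.382 (without 4Gts 8 h replicate 1), and the median change of the strain difference in TE from -0.48 to 0.2 (the same cultures), so that both changed sign; the 4Gts change with time in TE ranged from -0.194 to 0.429. As a median over copies, WT means were 1420 RPKM for Ty1 Gag mRNA, 1211 RPKM for Ty1 Gag-Pol mRNA and 625.3 RPKM for Ty1 Gag footprints. The cause of these changes was not tested. Averaged median differences stayed between -1.11 and -0.79 in mRNA and between -0.85 and -0.70 in footprints over 16 alternatives each. On simulated data with 4689 genes, 48 of 100 genes changed by 1 on the log2 scale were recovered in averaged mRNA and 35 of 100 in averaged footprints. Unchanged genes gave 8 false calls in mRNA and 4 in footprints. The simulated noise was independent between genes and cultures, while the random block estimated a correlation of 0.812 in mRNA and 0.887 in footprints. The simulation therefore cannot show how many calls are missed or false in these data.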
